A study of Homo sapiens with 8 samples.

Results

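The regions described are 8422 peaks of open chromatin that lie deep inside very long genes of the human embryonic kidney line HEK293, called deep peaks from here on. A deep peak lies on an autosome, fully inside a RefSeq protein-coding gene of at least 500 kb, and more than 10 kb from both ends of that gene. The peaks were chosen by position alone, with no measured change in the rule. They make up 6.50% of the 129536 peaks in the deposited table and 6.75% of the 124687 autosomal ones. RefSeq lists 303 such genes on GRCh38.p14, which together span 251 Mb, and 302 of them hold at least 1 deep peak. The exception was GALNT17, a glycosyltransferase gene of 581 kb on chromosome 7. A gene held a median of 22.5 deep peaks and at most 183, with 3.45 for every 100 kb of gene interior.

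The study measured chromatin accessibility by Omni-ATAC-seq, which cuts and tags exposed DNA in isolated nuclei with a transposase. All cells were HEK293 with the genotype eGFP-YAP, a fusion of a green fluorescent protein to the YAP transcription coactivator. The 4 vehicle libraries were labelled with vehicle treatment and carry 0 h in their names. The 4 sorbitol libraries were labelled with exposure to sorbitol at 0.2 M for 1 h, which raises the osmolarity outside the cell. Treatment and time go together in these labels, so they cannot be told apart. The series description adds a serum-free period of 1 h before treatment, and the titles name HEK293 without the fusion. The labels do not say whether libraries came from separate cultures, so p-values measure the spread between these libraries, which may be technical. Each library pooled many cells, and a site open in more cells cannot be told apart from a site more open in each cell.

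Library totals ran from 14757015 to 19831471 counts in peaks in vehicle and from 11522266 to 14355727 in sorbitol. Every sorbitol library was thus shallower than every vehicle library, so depth and treatment cannot be told apart. Log2 counts correlated at 0.948 to 0.968 within groups and at 0.910 to 0.927 between them. Vehicle 4 and sorbitol 4 stood apart on 477 peaks of contigs outside the assembled chromosomes (contig peaks), where their median deviation from the mean log2 CPM of all libraries was 0.349 and -0.317. In the other vehicle libraries it was -0.299 to -0.0662 and in the other sorbitol libraries 0.0814 to 0.295, so these libraries went against their groups. Of 10 marker genes of HEK293, 7 had a peak within 1 kb of a gene end, and PAX2, PAX8 and SALL4 had none. Such a peak was also found at 2 of 4 blood genes (up to 22.5 CPM at SPI1), at 1 of 2 liver genes (18.9 CPM at APOA1) and at neither of 2 pluripotency genes. CPM denotes counts scaled by the library's total, in the usual unit of that name.

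Genes of this length code mostly for cell adhesion proteins, synaptic proteins, ion channels and large transcription regulators. Most of their sequence is intron, and a polymerase needs hours to cross them. Deep inside them, open sites are commonly enhancers, binding sites of architectural proteins such as CTCF, or starts of shorter transcripts and of nested genes. Transposase cuts more often where nucleosomes are displaced, so a peak count is a reading of how exposed a site is. The gene table used here gives gene spans without exons, so no deep peak was placed in an exon or an intron.

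The deep peaks with a known element under them are those at a RefSeq transcription start, and 6 of their promoter windows are printed because the peaks over them span the range of responses. KLF12 has the strongest deep peak of all, and that peak was not called changed. CAST, ESRRG and SCHIP1 have internal starts under peaks that rose, MTUS2 has one under a peak that fell, and PALS1 starts inside GPHN under a peak that fell. Each window is 300 bases, from 250 before to 50 after the start, taken from RefSeq on GRCh38.p14, read 5′ to 3′ along the strand of the gene.
KLF12 internal start, chr13:74134355-74134654, minus strand: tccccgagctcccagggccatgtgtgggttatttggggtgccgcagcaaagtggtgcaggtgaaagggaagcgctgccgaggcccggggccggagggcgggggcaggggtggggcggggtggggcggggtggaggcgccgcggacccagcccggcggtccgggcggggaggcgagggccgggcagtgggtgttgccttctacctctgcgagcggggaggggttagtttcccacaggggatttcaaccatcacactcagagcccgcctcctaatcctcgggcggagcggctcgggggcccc
CAST internal start, chr5:96662126-96662425, plus strand: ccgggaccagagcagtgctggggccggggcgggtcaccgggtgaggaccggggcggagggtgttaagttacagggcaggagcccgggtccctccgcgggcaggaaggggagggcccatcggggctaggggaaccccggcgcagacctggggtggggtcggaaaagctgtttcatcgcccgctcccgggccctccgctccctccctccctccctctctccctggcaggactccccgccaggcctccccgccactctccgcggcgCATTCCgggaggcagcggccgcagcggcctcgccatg
ESRRG internal start, chr1:216723380-216723679, minus strand: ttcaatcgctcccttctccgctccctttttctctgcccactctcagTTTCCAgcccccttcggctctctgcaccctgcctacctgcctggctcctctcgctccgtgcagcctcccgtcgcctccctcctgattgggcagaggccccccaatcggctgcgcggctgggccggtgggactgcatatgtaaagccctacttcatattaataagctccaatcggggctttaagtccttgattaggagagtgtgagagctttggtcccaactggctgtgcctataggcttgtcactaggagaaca
SCHIP1 internal start, chr3:159852904-159853203, plus strand: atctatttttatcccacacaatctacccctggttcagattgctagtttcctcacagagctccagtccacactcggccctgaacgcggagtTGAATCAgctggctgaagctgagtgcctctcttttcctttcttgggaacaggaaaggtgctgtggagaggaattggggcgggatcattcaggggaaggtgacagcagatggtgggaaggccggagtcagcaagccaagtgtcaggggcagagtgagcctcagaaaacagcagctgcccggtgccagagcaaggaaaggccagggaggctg
MTUS2 internal start, chr13:29428410-29428709, plus strand: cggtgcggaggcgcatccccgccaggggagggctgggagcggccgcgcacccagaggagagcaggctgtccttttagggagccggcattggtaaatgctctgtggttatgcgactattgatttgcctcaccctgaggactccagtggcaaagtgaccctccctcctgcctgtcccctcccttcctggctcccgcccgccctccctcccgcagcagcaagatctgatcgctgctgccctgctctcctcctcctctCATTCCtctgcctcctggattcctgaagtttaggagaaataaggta
PALS1 start inside GPHN, chr14:67241185-67241484, plus strand: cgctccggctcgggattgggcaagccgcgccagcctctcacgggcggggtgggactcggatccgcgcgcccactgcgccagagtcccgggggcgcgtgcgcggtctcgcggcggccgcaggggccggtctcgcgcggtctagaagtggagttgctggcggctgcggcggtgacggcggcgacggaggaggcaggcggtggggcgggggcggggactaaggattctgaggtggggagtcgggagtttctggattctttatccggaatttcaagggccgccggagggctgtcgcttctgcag

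Capitals mark matches to 3 of 6 short motifs that were searched on both strands. CAST and MTUS2 hold the TEAD motif GGAATG on the reverse strand, at bases 264 and 255 of the window. ESRRG holds the NFAT motif TGGAAA on the reverse strand at base 47, and SCHIP1 holds the AP-1 motif TGANTCA at base 91. No printed window held the TATA box TATAAA, the E-box CACGTG or the CRE TGACGTCA, and none held more than 1 match, so no matches overlap. TEAD, NFAT and AP-1 motifs occurred in 14.04%, 20.8% and 7.72% of all 34943 windows. In the 274 windows under deep peaks they occurred in 14.6%, 17.5% and 10.9%. A match is only a description of letters. The windows of KLF12, CAST and PALS1 were 72.3%, 74.3% and 72% G and C, against 57.7% for ESRRG, 55.3% for SCHIP1 and 61.7% for MTUS2.

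The main comparison asked whether deep peaks were more or less open after sorbitol. As a group they took a larger part of each sorbitol library. Deep peaks held 3.22%, 3.21%, 3.36% and 3.26% of the counts in vehicle libraries 1 to 4, and 3.88%, 3.82%, 3.88% and 3.86% in sorbitol libraries 1 to 4. All 4 sorbitol libraries lay above all 4 vehicle libraries, with means of 3.26% ± 0.0652 and 3.86% ± 0.0284 (SD, n = 4). The ratio of means was 1.18. Without vehicle 4 and sorbitol 4 the means were again 3.26% and 3.86%. Peaks deep inside shorter protein-coding genes took a mean of 16.3% of counts in vehicle and 17.9% in sorbitol. For peaks within 1 kb of a gene end the means were 47.3% and 43.3%. Shares of a library depend on each other, since a smaller share in 1 class leaves more for the rest.

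**Figure D1:**
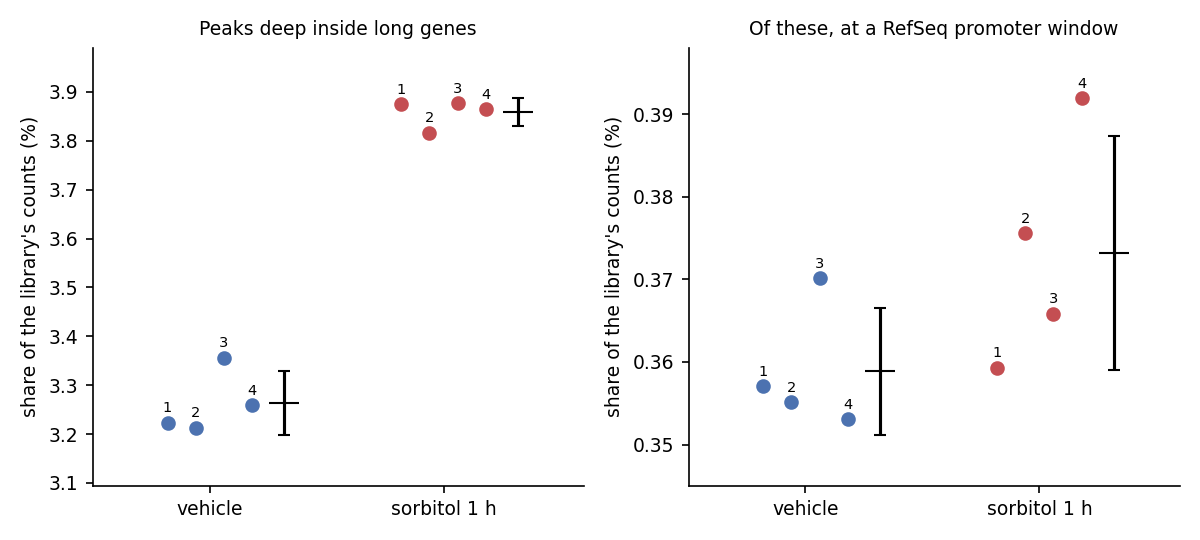
Share of each library's counts (percent, vertical axes) in all deep peaks and in those at a RefSeq promoter window, with 1 point per library, its replicate number above it, and the mean ± SD beside each group. The sorbitol points for all deep peaks sit between 3.82% and 3.88%, all above the vehicle points, while the groups overlap for the promoter windows; the vertical axes do not start at 0.

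Peak by peak, edgeR's quasi-likelihood test, adjusted over all tested peaks by the Benjamini-Hochberg method, called 2419 of 8420 tested deep peaks at an adjusted p under 0.05. That is 28.7%, against 29.1% of all 129487 tested peaks. The direction of the calls differed from that of the whole table. Higher after sorbitol were 2061 deep peaks (24.5%, against 16% of all peaks), and lower were 358 (4.25%, against 13.1%). Higher peaks thus made up 85.2% of the calls on deep peaks and 54.9% of all calls. With library factors taken from gene-end peaks, these shares were 95.9% and 79.5%. With factors from the 477 contig peaks they were 92.9% and 70.2%, and 1027 deep peaks were higher and 79 lower.

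Changes of at least 2-fold were found at 707 deep peaks that rose (8.40%, against 5.27% of all peaks). They were also found at 36 that fell (0.428%, against 0.881%). With a loess offset these counts became 339 and 101. Many of these changes lay in weak peaks. In the weakest decile of mean CPM over all peaks lay 302 of the 707 and 20 of the 36. Deep peaks of that decile had a median of 16.4 counts a library. There 28.0% of deep peaks rose at least 2-fold, against 27.6% of peaks deep inside shorter protein-coding genes. In the strongest decile 1 of 217 deep peaks did. In 2170 deep peaks every sorbitol library exceeded every vehicle library in CPM, and in 247 every one lay below. The corresponding shares of all peaks were 17.3% and 9.47%. The median log2 fold change was 0.18 over deep peaks, with quartiles of -0.12 and 0.54, and 0.01 over all peaks. Fold changes use edgeR's library factors on top of library totals. These factors ran from 0.954 to 0.990 in vehicle and from 1.01 to 1.04 in sorbitol. A rise is thus somewhat smaller, and a fall somewhat larger, than the ratio of CPM values gives.

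Set beside other positions, deep peaks had the highest share of higher calls and the lowest share of lower calls of the 4 classes examined. Peaks deep inside shorter protein-coding genes were higher in 19.6% and lower in 7.62%, and the median log2 fold change was 0.08. Intergenic peaks were higher in 16.3% and lower in 7.97%, and the median was 0.06. Peaks within 1 kb of a gene end, where promoters lie, were higher in 7.95% and lower in 35.0%, and the median was -0.18. These shares are descriptions of sets of unlike composition, and no test was made between them.

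At the long genes' own ends, lower calls outnumbered higher ones. Of 224 peaks within 1 kb of the 5′ end of a long gene with a known strand, 19 were higher (8.48%) and 41 lower (18.3%). The class of gene-end peaks above had 7.95% higher and 35.0% lower. The median over the 224 peaks was -0.05. Their median strength was 25.02 CPM, against 2.42 CPM for deep peaks. Of 22 peaks at the 3′ end, 2 were higher and 5 lower. From 1 to 10 kb inside an end, 20.6% of 247 peaks were higher and 9.72% lower.

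Gene-end peaks are mostly stronger than deep peaks, so shares were compared within deciles of mean CPM over all peaks. In the weakest decile, deep peaks and peaks deep inside shorter genes looked alike, with 35.0% and 34.6% higher and 2.41% and 2.08% lower. The classes parted as peaks became stronger. In decile 8, 24.7% of deep peaks were higher and 7.73% lower, against 15.1% and 14.4% in shorter genes. In the strongest decile, 30.9% of 217 deep peaks were higher and 11.5% lower, while 17.98% were higher and 30.1% lower deep inside shorter genes. Gene-end peaks of that decile were higher in 5.26% and lower in 50.4%.

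The strongest deep peaks were of unlike kinds. At a promoter window lay 72 of the 217, of which 10 were higher and 13 lower. Away from promoter windows, 57 of 145 were higher (39.3%) and 12 lower. The gene PCDH9 supplied 10 peaks of this decile, 8 of them higher, and without them 28.5% were higher and 12.1% lower.

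**Figure D2:**
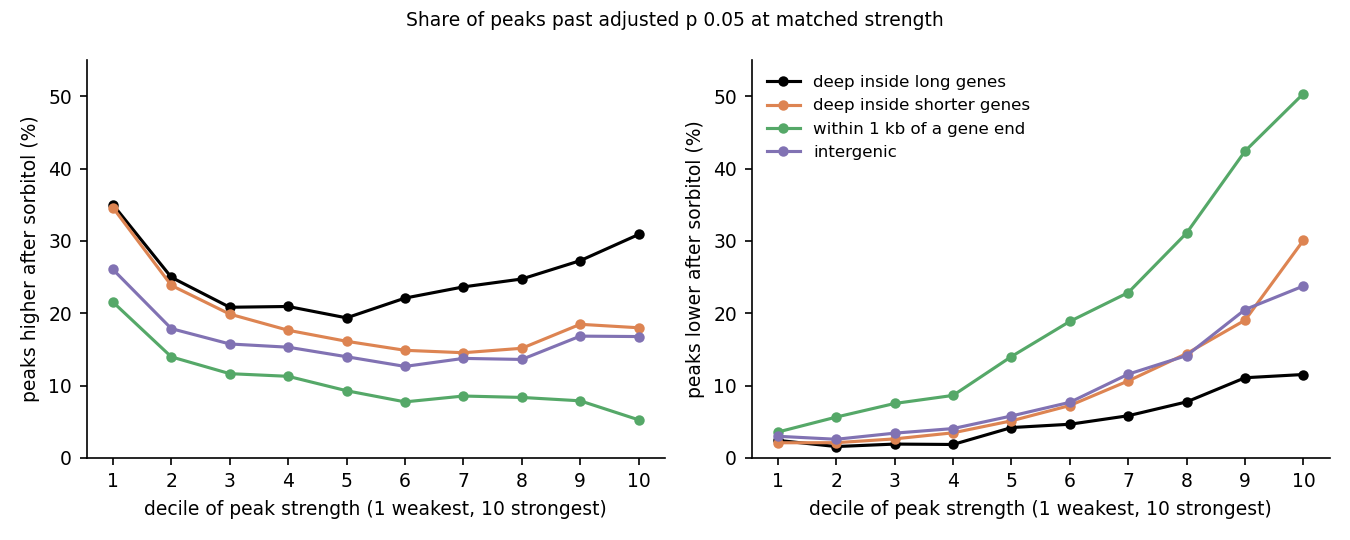
Percent of peaks called higher (left) and lower (right) after sorbitol at an adjusted p under 0.05, by decile of peak strength over all tested peaks, for deep peaks of long genes, deep peaks of shorter genes, peaks within 1 kb of a gene end and intergenic peaks. In decile 1 the curves of long and shorter genes nearly coincide (35.0% and 34.6% higher), and in decile 10 they stand at 30.9% and 17.98% higher.

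Position along the gene was described by the distance of a peak to the nearer end. Within long genes the shares changed little with distance. From 10 to 25 kb of an end, 20.6% of 378 deep peaks were higher and 5.03% lower, and the median log2 fold change was 0.14. From 100 to 200 kb, 26.1% of 2348 were higher and 3.83% lower, and the median was 0.18. Beyond 400 kb, 23.1% of 1032 were higher and 3.39% lower, and the median was 0.17. The medians of the outermost and innermost bins differed by 0.037, and leaving out single libraries gave 0.013 to 0.058. Among genes of at least 1 Mb this difference was -0.016.

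Peaks inside shorter genes showed a steeper course over the same distances. From 10 to 25 kb of an end, 16.3% of 11202 peaks were higher and 10.7% lower, and the median was 0.01. From 100 to 200 kb, 25.3% of 4459 were higher and 4.66% lower, and the median was 0.18, close to that of long genes at the same distance. From 200 to 400 kb, 29.0% of only 314 peaks were higher. Among shorter genes, too, only the longer ones reach the farther bins. Medians over interior peaks ran from -0.08 in genes under 50 kb to 0.17 in those of 300 to 500 kb. Distance and gene length thus cannot be told apart in this course. Pooled over long genes, there were 4.17 deep peaks for every 100 kb at 10 to 25 kb from an end and 2.42 beyond 400 kb. Only the longer of these genes reach the bin beyond 400 kb, so position and the make-up of the genes cannot be told apart. The median strength of deep peaks was 2.47 CPM in the outermost bin and 2.30 CPM in the innermost.

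Along the direction of transcription, the share of higher peaks differed little between broad stretches of the gene. In the 251 long genes with a known strand, 5 successive equal stretches of the gene from the 5′ end had 24.7%, 26.7%, 23.4%, 26.8% and 24.7% of deep peaks higher. Lower were 3.88%, 3.69%, 3.96%, 3.34% and 5.33%. The peak farthest from any end of its gene lay 1130 kb inside CNTNAP2, at chr7:147290553-147290843. It was weak, with 1.45, 1.15, 1.66 and 1.15 CPM in vehicle libraries 1 to 4 and 0.868, 1.75, 1.47 and 1.11 CPM in sorbitol libraries 1 to 4. The groups overlapped, and its log2 fold change was -0.14 ± 0.31 (edgeR adjusted p = 0.772).

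**Figure D3:**
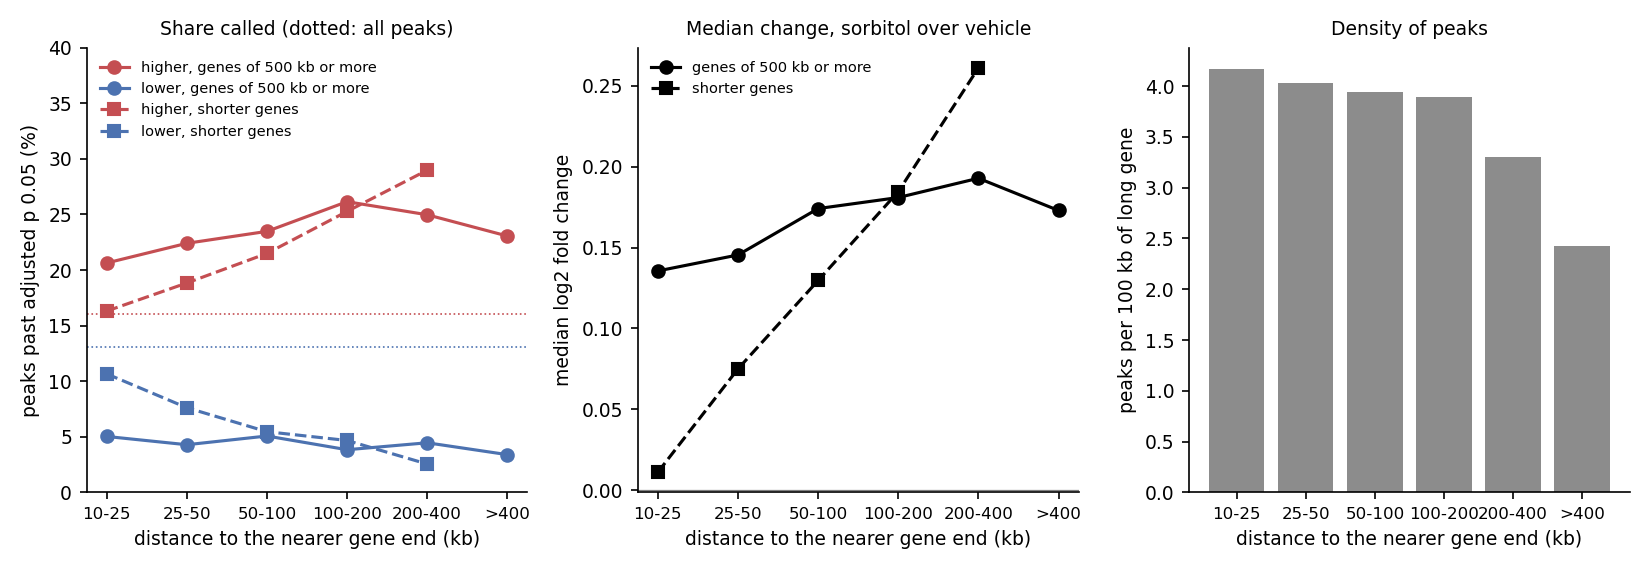
Percent of peaks called higher and lower (left), median log2 fold change (middle) and deep peaks for every 100 kb (right) against distance to the nearer gene end in kb, for long genes (circles) and shorter genes (squares); dotted lines mark the shares over all peaks. The curve of long genes stays between 20.6% and 26.1% higher, while that of shorter genes runs from 16.3% to 29.0%.

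Gene length itself was described over the 7110 genes with tested interior peaks. Over interior peaks of genes under 50 kb the median log2 fold change was -0.08, with 12.8% higher and 16.4% lower. In genes of 100 to 200 kb the median was 0.08, with 19.4% higher and 7.46% lower. The values of genes from 300 to 500 kb (0.17, 23.7% and 4.19%) were close to those of long genes under 1 Mb (0.17, 24.0% and 4.59%). In the 66 genes of 1 Mb or more the median was 0.21, with 25.5% higher and 3.46% lower.

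To describe single genes, the counts of a gene's deep peaks were summed in each library and fitted with the interior sums of all genes. By the edgeR quasi-likelihood test, 121 of 302 long genes had a higher sum after sorbitol (23.8% of all genes did) and 60 had a lower sum (21.2% of all genes). The other 121 were not called. These shares compare sums of unlike precision. The median standard error was 0.052 in long genes under 1 Mb and 0.045 from 1 Mb, against 0.179 in genes under 50 kb. In genes of 300 to 500 kb, with a median standard error of 0.060, 37.2% of sums were higher and 13.7% lower. The median log2 fold change was 0.06 over long genes and -0.01 over all genes. These calls rest on the scaling. With library factors from contig peaks, which ran from 0.807 in sorbitol 4 to 1.27 in vehicle 4, 1 long gene was higher and 1 was lower. With factors from gene-end peaks, 198 were higher and 22 lower.

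The direction of a gene's sum went with the number of its deep peaks, a split made after the values were seen. Of 31 genes with 1 to 4 tested deep peaks, 1 was higher and 9 were lower. Of 66 genes with 10 to 19, 11 were higher and 22 lower. Of 106 genes with 20 to 39, 56 were higher and 13 lower. Of 55 genes with 40 to 79, 40 were higher and 4 lower. All 11 calls among the 13 genes with 80 or more were higher. Median log2 fold changes of the sums went from -0.26 in the class with fewest peaks to 0.27 in that with most.

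The same held peak by peak, since 6.33% of deep peaks were higher in the genes with 1 to 4 and 38.5% in those with 80 or more. Genes of 200 to 500 kb showed a like course, with 15 higher and 40 lower of 155 genes that had 1 to 4 interior peaks, and 20 higher and none lower of 22 genes that had 40 to 79. The number of peaks comes from the same libraries, and the sources used here do not state whether peaks were called per group or on all libraries. The part of that choice in the relation was not tested.

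**Figure D4:**
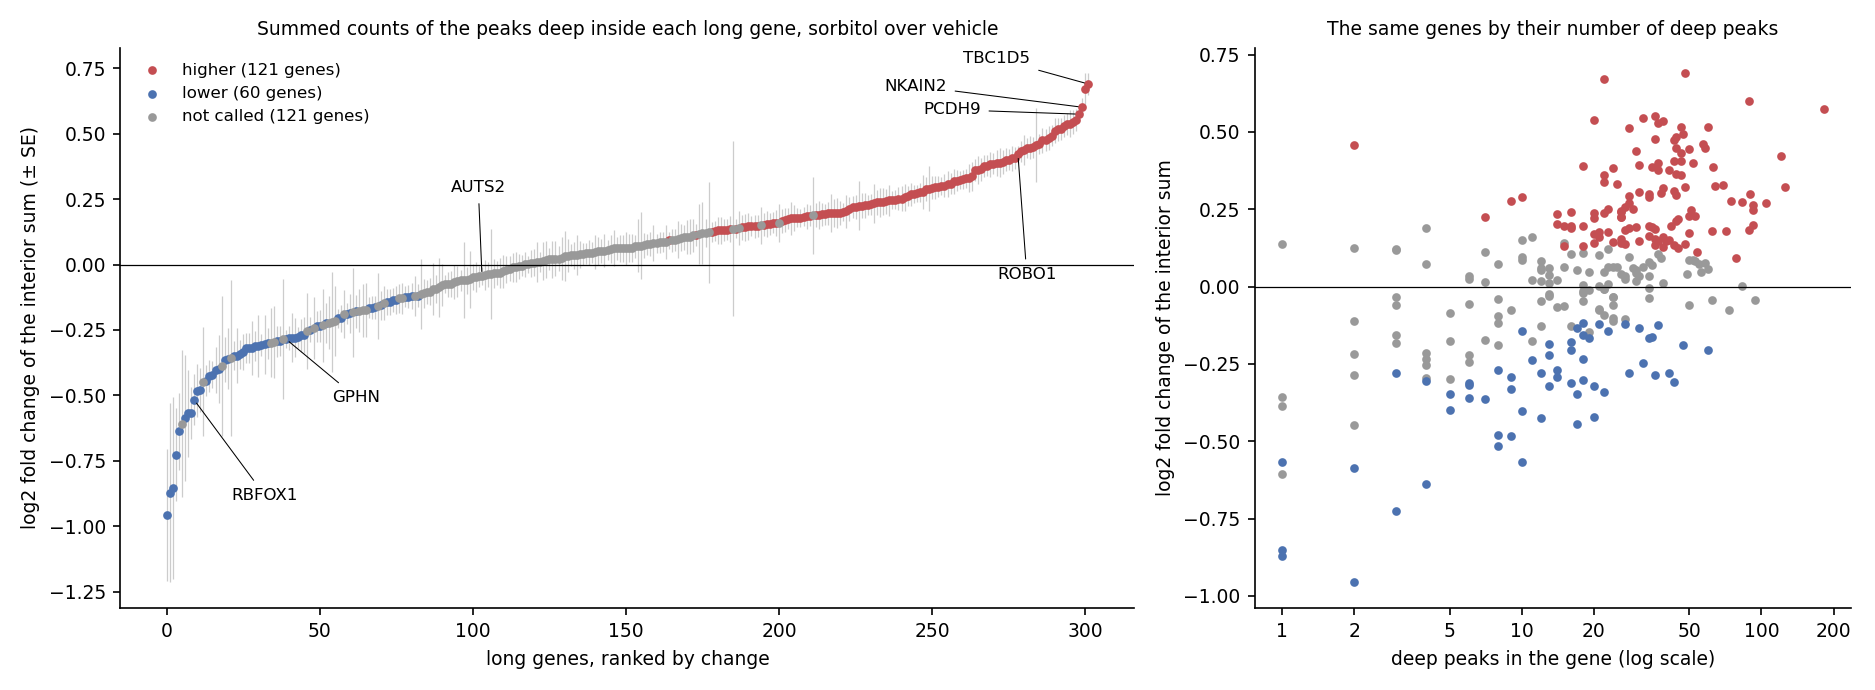
Log2 fold change (sorbitol over vehicle) of the summed counts of deep peaks in each of 302 long genes, ranked with its standard error (left) and against the number of deep peaks in the gene on a log axis (right); red genes are higher, blue lower and grey not called at an adjusted p under 0.05. Genes with few peaks lie mostly below 0 and genes with many mostly above it, with TBC1D5 and NKAIN2 near the top and RBFOX1 toward the bottom.

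PCDH9, which codes for a protocadherin of neural cell adhesion, carried more deep peaks than any other long gene. It spans chr13:66302834-67230336 and held 183, or 20.2 for every 100 kb, with no other protein-coding gene within 1 Mb. Of these, 135 were higher and none lower, and 181 of 183 had a log2 fold change above 0. Summed over its deep peaks, CPM was 904, 903, 945 and 989 in vehicle libraries 1 to 4 and 1508, 1420, 1501 and 1468 in sorbitol libraries 1 to 4. The groups did not overlap, and the log2 fold change of the sum was 0.57 ± 0.03 (edgeR adjusted p = 1.65e-29). Without PCDH9, 23.4% of deep peaks were higher.

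TBC1D5, a regulator of Rab GTPases in endosomal sorting, had the largest rise in its sum. At chr3:17157162-17742631 it held 48 deep peaks, of which 34 were higher and 20 of these at least 2-fold. Its summed CPM was 142, 147, 139 and 136 in vehicle libraries 1 to 4 and 235, 239, 252 and 238 in sorbitol libraries 1 to 4. Every sorbitol library was well above every vehicle library, with a log2 fold change of 0.69 ± 0.04 (edgeR adjusted p = 1.61e-25). Among the named genes it alone kept its call with factors from contig peaks.

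NKAIN2, whose product binds the sodium and potassium pump, spans chr6:123803865-124825640 and held 89 deep peaks, 52 higher and none lower. Summed over its deep peaks, CPM was 241, 234, 241 and 252 in vehicle and 391, 369, 390.1 and 402 in sorbitol libraries 1 to 4. The groups were apart in every library, and the log2 fold change was 0.60 ± 0.04 (edgeR adjusted p = 4.91e-25). ROBO1, a receptor for Slit guidance proteins at chr3:78597239-79767998, had 68 higher and no lower deep peaks of 121. The summed CPM of its deep peaks was 466, 473, 481 and 476 in vehicle and 662, 669, 681 and 676 in sorbitol libraries 1 to 4, and the log2 fold change was 0.42 ± 0.03 (edgeR adjusted p = 2.99e-19). Within each group these values differed by only a few percent.

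Also among the 6 smallest p-values for higher sums were FOXP2 and NAALADL2. FOXP2 at chr7:114086327-114693765, a forkhead transcription factor tied to speech development, had 19 of 36 deep peaks higher. Its summed CPM was 173, 164, 169 and 155 in vehicle and 257, 249, 252 and 268 in sorbitol libraries 1 to 4, a log2 fold change of 0.55 ± 0.04 (edgeR adjusted p = 4.89e-20). NAALADL2, a peptidase-like gene at chr3:174440982-175810548, had 15 of 39 deep peaks higher and a log2 fold change of 0.54 ± 0.04 (edgeR adjusted p = 1.10e-18). The medians over deep peaks were highest in CADPS2 (0.92, 13 of 22 peaks higher), TBC1D5 (0.78), PDE1A (0.74, 17 of 28) and ATRNL1 (0.73, 21 of 43). CADPS2 serves the release of dense-core vesicles and PDE1A hydrolyses cyclic nucleotides.

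**Figure D5:**
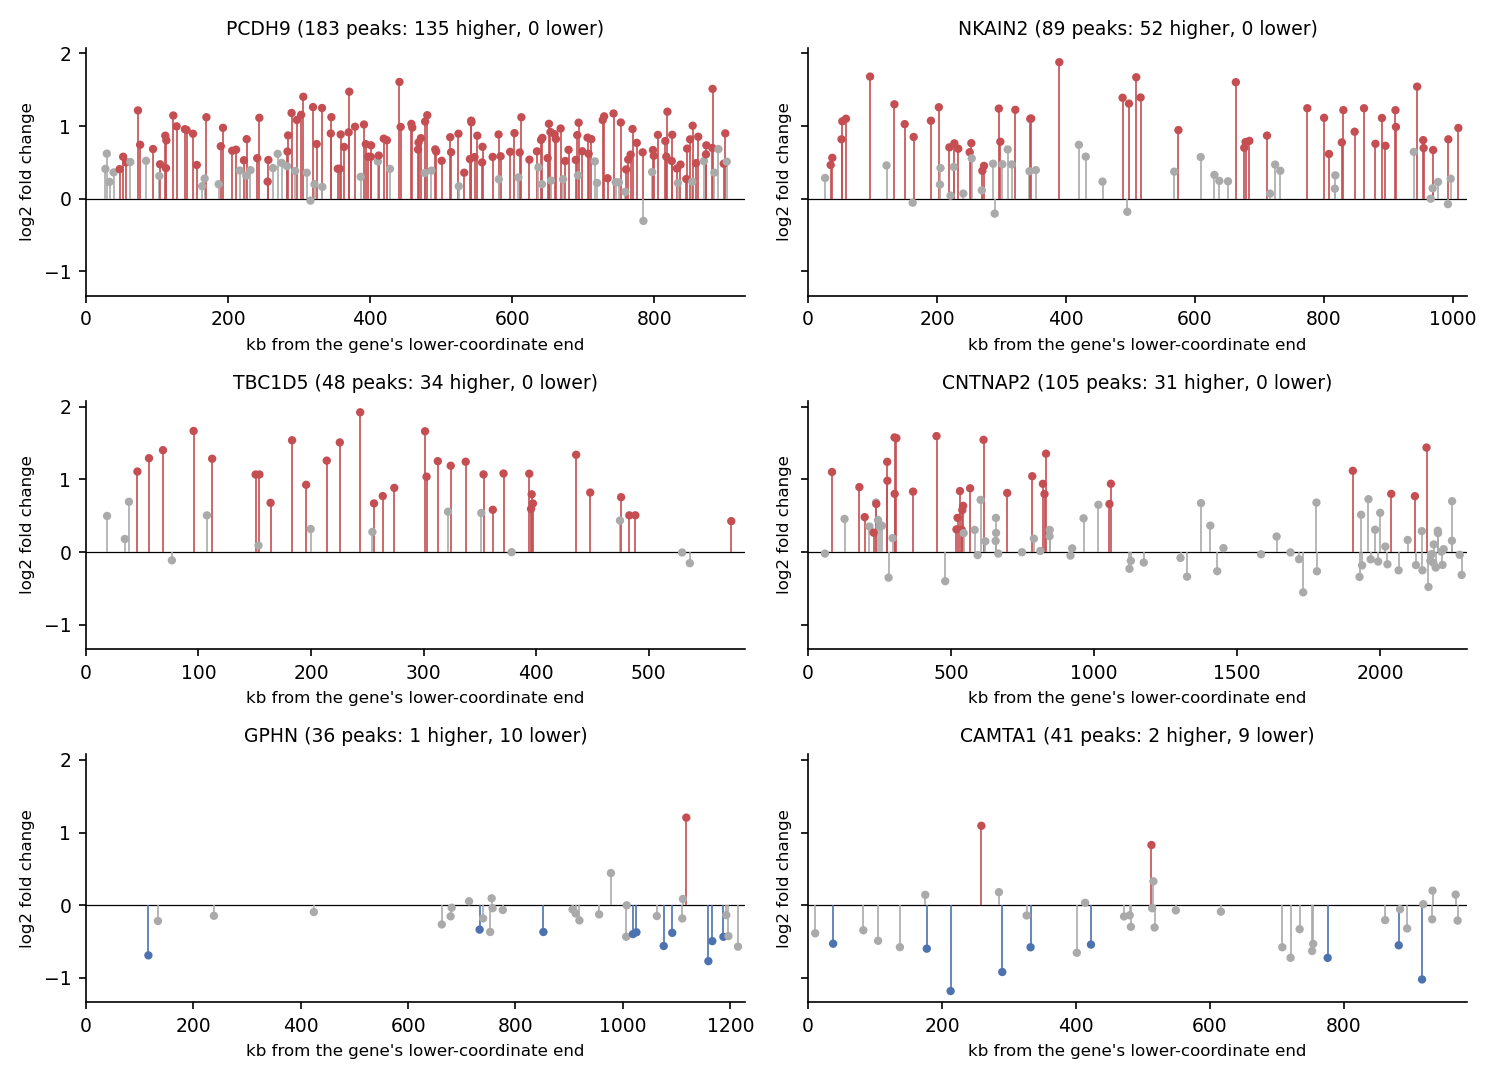
Log2 fold change (sorbitol over vehicle, vertical axis) of every tested deep peak in 6 long genes, against its distance in kb from the gene's lower-coordinate end; red peaks are higher, blue lower and grey not called at an adjusted p under 0.05. Higher peaks are spread over the whole of PCDH9, NKAIN2 and TBC1D5, those of CNTNAP2 lie mostly toward its lower-coordinate end, and GPHN and CAMTA1 carry mostly peaks below 0.

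Among the 60 lower sums, that of GPHN had one of the smallest p-values. GPHN, the gephyrin scaffold of inhibitory synapses at chr14:66508147-67735355, had 1 higher and 10 lower of 36 deep peaks. Summed over its deep peaks, CPM was 389, 402, 396 and 392 in vehicle and 348, 339, 334 and 351 in sorbitol libraries 1 to 4, a log2 fold change of -0.28 ± 0.04 (edgeR adjusted p = 1.76e-10). All 4 sorbitol sums of GPHN lay below its vehicle sums. Of its 36 deep peaks, 10 lay within 1 kb of an end of another gene.

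SHANK2, a postsynaptic scaffold at chr11:70467854-71253234, had 5 lower and no higher of 17 deep peaks. Its summed CPM was 64.8, 61.05, 61.5 and 58.3 in vehicle and 49.6, 44.8, 52.97 and 44.4 in sorbitol libraries 1 to 4. The groups did not overlap, and the log2 fold change was -0.44 ± 0.06 (edgeR adjusted p = 1.63e-09). CAMTA1, a calmodulin-binding transcription activator at chr1:6785454-7769706, had 2 higher and 9 lower of 41 and a log2 fold change of -0.28 ± 0.04 (edgeR adjusted p = 3.04e-08). ENTREP2 on chromosome 15 had 3 lower and no higher of 12 and a log2 fold change of -0.43 ± 0.06 (edgeR adjusted p = 1.92e-08). LRRC37A2 on chromosome 17 changed by -0.31 ± 0.04, but it belongs to a family of near-identical copies, so its counts are uncertain. Its RefSeq span of 676 kb, like the 1123 kb of RANBP2, is long for such a gene, and peaks counted as inside these genes may not belong to them. Without both genes, 24.7% of deep peaks were higher and 4.21% lower.

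RBFOX1, a splicing regulator and the longest gene at 2474 kb (chr16:5239721-7713340), was nearly bare, with 8 deep peaks or 0.326 for every 100 kb. None of the 8 had a log2 fold change above 0, and 2 were lower. Summed over its deep peaks, CPM was 16.1, 18.9, 19.9 and 16.8 in vehicle and 13.1, 12.3, 14.05 and 13.7 in sorbitol libraries 1 to 4. The groups did not overlap, with a log2 fold change of -0.52 ± 0.10 (edgeR adjusted p = 9.14e-06). Its relative RBFOX3, with 4 lower and no higher of 22 deep peaks, changed by -0.34 ± 0.06 (edgeR adjusted p = 3.01e-07). SYN3, a synapsin, had a low median of -0.34 over its 21 peaks, but its sums overlapped between groups and had a log2 fold change of -0.12 ± 0.05 (edgeR adjusted p = 0.0415). That call was lost without vehicle 1, vehicle 2, sorbitol 2, sorbitol 3 or sorbitol 4 in turn.

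Many deep peaks did not entail a higher sum. AUTS2, a nuclear regulator of neural development at chr7:69598475-70793506, held 94 deep peaks, of which 5 were higher and 7 lower. The summed CPM of its deep peaks was 531, 532, 537 and 502 in vehicle and 529.9, 546, 538 and 548 in sorbitol libraries 1 to 4. The groups overlapped, and the log2 fold change was -0.04 ± 0.03 (edgeR adjusted p = 0.316), which turned positive with library totals (0.04). Its call depended on the setting: the sum passed the test as higher with gene-end factors (0.13), and as lower without sorbitol 4 and vehicle 4, its lowest vehicle library (-0.10). GPC5, CNTNAP2, FOXP1, GPC6, RYR2 and ROBO2, which held 90 to 126 deep peaks, had higher sums. Their log2 fold changes were 0.32 ± 0.03, 0.27 ± 0.03, 0.25 ± 0.03, 0.20 ± 0.04, 0.26 ± 0.04 and 0.30 ± 0.04 in that order. GPC5 and GPC6 are cell surface glypicans, CNTNAP2 an axonal adhesion protein, FOXP1 a forkhead factor, RYR2 a calcium release channel and ROBO2 a Slit receptor. The largest edgeR adjusted p among these 6 was 1.84e-06, for GPC6.

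Peaks of 1 gene also differed among themselves. Over the 174 genes with at least 20 tested deep peaks, medians ran from -0.45 to 0.92 with an SD of 0.254, and the median SD among peaks of a gene, counting error included, was 0.434. In 134 of the 174 the median was above 0. Both higher and lower deep peaks were present in 89, only higher ones in 79 and only lower ones in 6. The 10 genes with the most higher peaks, from PCDH9, ROBO1 and NKAIN2 to CCDC178, held 24.4% of all higher deep peaks, and without them 21.0% of the deep peaks were higher.

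The long genes were then taken by role, in lists drawn up from general knowledge. Common fragile site genes, whose DNA breaks under replication stress, were 17, all long. Of their sums 7 were higher and 1 lower, and of their 771 tested deep peaks 156 were higher (20.2%) and 32 lower (4.15%), against 24.5% and 4.25% of all deep peaks. The median log2 fold change was 0.11, below the 0.18 of all deep peaks. LRP1B, a lipoprotein receptor, rose by 0.46 ± 0.04 (edgeR adjusted p = 1.16e-17). The oxidoreductase gene WWOX had 3 higher and 2 lower of 56 and a log2 fold change of 0.05 ± 0.04 (edgeR adjusted p = 0.375). In FHIT, a nucleotide hydrolase gene, 2 of 34 deep peaks were higher and 3 lower, and the adjusted p of the sum was 0.95.

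Neuronal adhesion and guidance genes gave 31 long genes of 35 listed, with 8 sums higher and 10 lower. Their 863 deep peaks included 226 higher (26.2%) and 30 lower (3.48%), and the median was 0.20. The higher sums were those of genes rich in peaks, such as NLGN1 (neuroligin; 47 deep peaks, 0.49 ± 0.04, edgeR adjusted p = 2.37e-18) and ROBO2 (90, 0.30 ± 0.04, 2.06e-11). The lower sums were those of genes with 20 deep peaks or fewer. Among them were the IgLON adhesion genes OPCML (8 deep peaks, -0.48 ± 0.08, edgeR adjusted p = 1.68e-06) and NTM (20, -0.32 ± 0.06, 3.40e-06) and the contactin CNTN4 (10, -0.40 ± 0.09, 1.15e-04). LSAMP, another IgLON gene with 37 deep peaks, rose by 0.40 ± 0.04 (edgeR adjusted p = 1.18e-12).

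Cadherin and catenin genes, which join cells through calcium-dependent adhesion, gave 10 long genes of 14 listed. Of their sums 5 were higher and 1 lower, and of 392 deep peaks 188 were higher (48.0%) and 8 lower (2.04%), and the median was 0.47. PCDH9 held 183 of these peaks, and the other 209 had 53 higher (25.4%) and 8 lower (3.83%) and a median of 0.23. CDH12 rose by 0.38 ± 0.04 (edgeR adjusted p = 4.63e-12) and CDH18 by 0.36 ± 0.05 (2.07e-08). CDH4 fell, with a log2 fold change of -0.22 ± 0.08 (edgeR adjusted p = 0.0134). PCDH15, a protocadherin of inner ear hair cells, rose by 0.31 ± 0.04 with 14 of 43 deep peaks higher.

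Receptor and ion channel genes gave 16 long genes of 29, with 6 sums higher and 3 lower. Of 428 deep peaks, 75 were higher (17.5%) and 24 lower (5.61%), and the median was 0.12. This share of higher peaks was below that of all deep peaks and near the 16% of all peaks. RYR2, the cardiac calcium release channel, had 25 higher and 1 lower of 92, and ERBB4, a growth factor receptor, rose by 0.39 ± 0.05 (edgeR adjusted p = 5.58e-10). CACNA2D3, a calcium channel subunit, fell, with 6 lower and 2 higher of 47 deep peaks and a log2 fold change of -0.19 ± 0.04 (edgeR adjusted p = 1.05e-04). Its call was lost with gene-end factors (-0.01). Scaffold, polarity and cyclic nucleotide genes gave 16 of 25, with 7 sums higher and 2 lower and a median of 0.16 over 576 deep peaks, 122 higher (21.2%) and 13 lower (2.26%). PRKG1, a cyclic GMP-dependent kinase, rose by 0.28 ± 0.04 (edgeR adjusted p = 8.01e-10), and DOCK1, an activator of Rac, fell with a log2 fold change of -0.29 ± 0.06 (2.21e-05).

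Transcription and RNA-binding genes gave 17 of 32, with 9 sums higher and 2 lower. Of 619 deep peaks, 163 were higher (26.3%) and 25 lower (4.04%), and the median was 0.21. Besides FOXP2, RBMS3 rose by 0.53 ± 0.04 (edgeR adjusted p = 1.88e-18) and MECOM by 0.33 ± 0.04 (1.47e-12). The 2 lower sums were those of RBFOX1 and RBFOX3. The 203 long genes in no list had 82 sums higher and 41 lower, and a median of 0.16 over 5110 deep peaks, of which 1198 were higher (23.4%) and 235 lower. The list medians depended on the scaling. They ran from 0.04 (receptors and channels) to 0.43 (cadherins and catenins) with a loess offset and from 0.29 to 0.64 with gene-end factors, which moved the median of all peaks from 0.01 to 0.18.

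Among single deep peaks changed at least 2-fold, the smallest p-value belonged to a site inside TBC1D5 at chr3:17550409-17551721, 190.9 kb from the nearer end of the gene. It held 12.7, 13.1, 11.7 and 12.1 CPM in vehicle libraries 1 to 4 and 28.5, 29.5, 23.1 and 29.8 CPM in sorbitol libraries 1 to 4. Every sorbitol library was higher, with a log2 fold change of 1.08 ± 0.10 (edgeR adjusted p = 5.44e-12). A site inside LSAMP at chr3:116188025-116188739 rose from 5.52, 5.00, 5.24 and 5.29 CPM to 15.9, 16.6, 10.8 and 14.8 CPM, by 1.39 ± 0.13 on the log2 scale (edgeR adjusted p = 1.51e-11). Sorbitol 3 was the lowest of its group at both sites but still above all vehicle libraries. The other 3 named risers lay in RBMS3 at chr3:29430399-29431067 (1.14 ± 0.12), in KLF12 at chr13:74132191-74132469 (1.06 ± 0.12) and in PCDH9 at chr13:67045226-67045729 (1.17 ± 0.14).

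Of the 5 named peaks that fell, the one with the smallest p-value lay in FRMD4A, a gene for a FERM-domain scaffold, at chr10:14185460-14186402, 60 bp from an end of the long non-coding RNA gene LOC124902378. It held 18.1, 15.9, 19.01 and 13.4 CPM in vehicle and 6.25, 8.76, 6.76 and 8.36 CPM in sorbitol libraries 1 to 4. All sorbitol values were below all vehicle values, with a log2 fold change of -1.22 ± 0.13 (edgeR adjusted p = 1.33e-10). The others lay within the span listed for LRRC37A2 at chr17:46942485-46942952 (-1.10 ± 0.17), SHANK2 at chr11:71152893-71153541 (-1.06 ± 0.18), DOCK3 at chr3:50841073-50841520 (-1.27 ± 0.21) and CAMTA1 at chr1:6998200-6998633 (-1.18 ± 0.22). Their adjusted p-values in the edgeR test ran from 8.68e-07 to 5.39e-05.

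Some deep peaks are promoters in the middle of a long gene, and they are described apart here. A RefSeq promoter window lay under 210 deep peaks, 132 at an internal start of the long gene itself and 98 at a start of another gene, with some at both. Of the 210, 31 were higher (14.8%, against 16% of all peaks) and 26 lower (12.4%, against 13.1%). Both shares were thus near those of the whole table. The median log2 fold change was -0.01 at a median strength of 10.9 CPM. Their share of library counts was 0.357%, 0.355%, 0.370% and 0.353% in vehicle libraries 1 to 4. In sorbitol libraries 1 to 4 it was 0.359%, 0.376%, 0.366% and 0.392%. The groups overlapped, with means of 0.359% ± 0.00770 and 0.373% ± 0.0142 (SD, n = 4). The deep peaks clear of every gene end and promoter window took 2.75% ± 0.0577 of counts in vehicle and 3.32% ± 0.0367 in sorbitol.

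Elsewhere in the autosomes, promoter windows lay under 12114 other peaks, of which 6.80% were higher and 41.9% lower, and the median was -0.19. Taken by peak, the median GC of the windows was 53.4% at deep peaks and 65.3% at these other peaks. Taken by window, it was 55.3% under deep peaks, against 58.7% over all 34943 windows, whether or not a peak lay there. At windows under 50% GC, 14 of 84 deep peaks were higher and 3 lower, against 11.5% and 18.7% of 1179 others. At windows of 50 to 65%, 9 of 66 were higher and 12 lower, against 4.89% and 47.9% of 4560 others. At windows of 65% or more, 8 of 60 were higher and 11 lower, against 7.29% and 41.9% of 6375 others. The part of strength in these differences was not tested. The median was 10.9 CPM for all deep peaks at windows and 25.2 CPM for the others, and by class of GC it was 4.35 against 6.29, 12.4 against 25.8, and 23.1 against 28.1 CPM.

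The strongest deep peak sits over the KLF12 start printed above, at chr13:74133545-74136221; KLF12 is a zinc-finger repressor. It held 169.8, 172, 181 and 171 CPM in vehicle and 177, 199.7, 178 and 205 CPM in sorbitol libraries 1 to 4. The groups overlapped, with a log2 fold change of 0.05 ± 0.07 (edgeR adjusted p = 0.65), which turned negative without sorbitol 4 (-0.0073) and passed the test with a loess offset (0.29) and with gene-end factors (0.22). Beside it, 1076 bp away, the narrow peak at chr13:74132191-74132469 held 8.74, 7.65, 7.66 and 5.96 CPM in vehicle and 15.4, 15.5, 16.6 and 18.5 CPM in sorbitol libraries 1 to 4. All sorbitol values of that neighbour lay above its vehicle values, and it rose on the log2 scale by 1.06 ± 0.12 (edgeR adjusted p = 2.04e-09). Between these peaks lies another, at chr13:74132934-74133301 and 244 bp from the promoter peak, which fell (log2 fold change -0.37, edgeR adjusted p = 0.00595). Elsewhere too, called peaks near a promoter peak that was not called went either way. In ROBO1 and GALNT13 a peak rose by 0.75 and 0.54 at 1531 and 68 bp from a promoter peak with a log2 fold change of -0.04 in each gene, and in CAMTA1 a peak with a log2 fold change of -1.02 lay 1131 bp from one with 0.02.

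Over all such neighbours, 145 deep peaks lay within 5 kb of a deep peak at a promoter window, a set chosen after the values were seen. Of these, 35 were higher (24.1%, against 16% of all peaks) and 14 lower (9.66%, against 13.1%), and the median was 0.13. The 92 promoter peaks beside them had 20 higher (21.7%) and 9 lower (9.78%), and the median was 0.05. Among the 8065 deep peaks farther away, 24.7% were higher and 3.94% lower, and the median was 0.19.

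Internal starts also included called changes, of which those of CAST, ESRRG and MTUS2 were lost with contig factors (edgeR adjusted p = 0.237, 0.168 and 0.0746) and that of SCHIP1 was not. CAST codes for calpastatin, the inhibitor of calpain proteases, and its peak at chr5:96661200-96663458 held 72.6, 79.7, 81.4 and 71.6 CPM in vehicle and 96.4, 110.4, 106 and 125 CPM in sorbitol libraries 1 to 4. All sorbitol libraries were higher, with a log2 fold change of 0.44 ± 0.08 (edgeR adjusted p = 3.35e-05). The peak over the start of ESRRG, an orphan nuclear receptor gene, at chr1:216722999-216723970 held 22.3, 19.9, 22.2 and 19.3 CPM and 33.7, 27.6, 33.8 and 32.8 CPM in the same order. It rose by 0.53 ± 0.09 (edgeR adjusted p = 1.40e-05), with sorbitol 2 lower than the other sorbitol libraries. The SCHIP1 start at chr3:159852960-159853462, inside both SCHIP1 and the readthrough gene IQCJ-SCHIP1, rose from 2.36, 2.59, 4.13 and 3.18 CPM to 6.25, 6.29, 6.33 and 6.69 CPM, or by 0.96 ± 0.18 (edgeR adjusted p = 3.01e-05).

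MTUS2, a microtubule-associated protein gene, went the other way at chr13:29428210-29429223. Its peak held 19.9, 24.9, 22.4 and 17.6 CPM in vehicle and 15.01, 14.7, 14.7 and 15.3 CPM in sorbitol libraries 1 to 4. Vehicle values were more scattered, but all exceeded the sorbitol values, with a log2 fold change of -0.59 ± 0.11 (edgeR adjusted p = 2.15e-05). Over ADGRL2, an adhesion receptor, the peak at chr1:81800160-81803762 held 108, 114, 120.1 and 112 CPM in vehicle and 110.2, 120.3, 109.8 and 118 CPM in sorbitol libraries 1 to 4. The groups overlapped (log2 fold change -0.07 ± 0.07, edgeR adjusted p = 0.545), and the value was positive with library totals, loess and gene-end factors, passing the test as higher with loess (0.16).

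The 3 strongest deep peaks at the start of another gene lay at PALS1, MDH1 and LYRM4. PALS1, a polarity protein of the Crumbs complex, starts inside GPHN under the peak at chr14:67240572-67242142. It held 63.7, 68.7, 64.9 and 62.9 CPM in vehicle and 54.8, 54.1, 52.9 and 56.8 CPM in sorbitol libraries 1 to 4. Every sorbitol library was lower, with a log2 fold change of -0.33 ± 0.08 (edgeR adjusted p = 8.23e-04), and the call was lost with a loess offset (-0.13), gene-end factors (-0.16) and contig factors (-0.35). The start of MDH1, cytosolic malate dehydrogenase, inside WDPCP at chr2:63587997-63589289 had a log2 fold change of -0.18 ± 0.08 (edgeR adjusted p = 0.0866). The start of LYRM4, an iron-sulfur cluster factor, at chr6:5260201-5261724 in FARS2 had one of -0.11 ± 0.09 (edgeR adjusted p = 0.377). Windows of WDPCP and FARS2 themselves lay under these peaks as well. Neither was called, and the groups overlapped at both. Without vehicle 4 and sorbitol 4, an alternative chosen after the data were seen, both passed the test (-0.21 each).

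Chromosomes differed widely. On chromosome 13, which holds PCDH9, GPC5, GPC6 and KLF12, 41.1% of 598 deep peaks were higher, with a median of 0.41. Without that chromosome 23.2% of deep peaks were higher. Medians were also high on chromosomes 6 (0.35), 4 (0.30) and 3 (0.28). Deep peaks on chromosomes 17, 22 and 16 had medians of -0.21, -0.32 and -0.14, with 1.46%, 1.45% and 6.49% higher. On 17 of the 21 chromosomes with deep peaks, their median was above that of the other peaks of the chromosome.

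The surroundings of a gene went with its median, as a description over the 174 genes with at least 20 tested deep peaks. Spearman's rho between the gene median and the number of other protein-coding genes within 1 Mb, for every Mb, was -0.38. It was 0.27 with deep peaks for every 100 kb, -0.18 with median CPM and -0.02 with gene length. The 43 genes in the sparsest surroundings, with at most 1.83 genes for every Mb, had a median of gene medians of 0.37, with 33 sums higher and 1 lower. The 43 in the densest, with at least 5.63, had 0.03, with 16 sums higher and 11 lower. AUTS2, with 0.626 genes for every Mb and no call, was an exception.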

How the data were processed

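Omni-ATAC-seq was analysed in 4 vehicle and 4 sorbitol libraries of HEK293. The authors deposited 1 table of raw counts per peak for 129536 peaks, with chromosome, start and stop on GRCh38 and 1 column per library. Per the submitters' processing notes, the tools included Trim Galore 0.6.10, BWA 0.7.17, SAMtools 1.22, Picard, MACS2 2.2.9.1, bedtools, deepTools 3.5.4 and DESeq2. How peaks were called and merged, and whether reads or fragments were counted, is not given in the sources used here. Hi-C, RNA-seq and CUT&Tag data named in the series description were not used here.

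Genes came from RefSeq on GRCh38.p14 (19122 protein-coding autosomal genes). Deep peaks were taken by overlap with gene spans, and 39 lay in more than 1 long gene. They were 200 to 3602 bp wide. Counts were fitted over all peaks with edgeR 4.0.16 in R 4.3.3 (TMM factors, filterByExpr with a minimum count of 10 and a total of 15, the quasi-likelihood test, Benjamini-Hochberg adjustment over all 129487 tested peaks, threshold 0.05). Interior sums of 7110 genes were fitted likewise with the same factors. Errors of fold changes are standard errors, and the steps were tested on simulated data. A deep peak had a median mean count of 34.75 a library, which limits the precision of single peaks.

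Named genes were those with the most tested deep peaks (10), the smallest p of the sum in each direction (6), the 4 lowest and 4 highest medians among genes with 20 or more tested deep peaks, the longest gene, and the 2 with most deep peaks of each role list. Named peaks were the 5 with the smallest p in each direction among those changed 2-fold without overlap, the farthest from both ends, the strongest, and the 3 strongest at the start of a nested gene. Other genes, and the peaks at internal starts, were chosen after their values were seen. The deep peaks and lists were chosen with earlier results of these data known. The main fits did not pair libraries by replicate number. Deviations of same-numbered libraries correlated at -2.595e-05, 0.0068, -0.0306 and -0.133. With 4 libraries in each group and counting error in each peak, these values cannot exclude a pairing. Alternatives covered library factors, DESeq2 1.42.0, filters, thresholds, a replicate block, single libraries left out and other limits of gene length and distance. Some genes that the naming rule picks are not reported here.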

Additional observations from a re-analysis of the deposited data

Results flagged for a closer look

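In 102 groups of 4 libraries, the highest and lowest library were compared with the others, and 4 libraries lay far from the rest of their group, where chance alone gives about 1 in 20 groups. The interior sum of AUTS2 was 501.6 CPM in vehicle 4 and 531.3 to 536.8 CPM in the other vehicle libraries. The interior sum of RYR2 was 268.0 CPM in vehicle 4 and 227.5 to 234.2 CPM in the others. The internal start of ESRRG held 27.55 CPM in sorbitol 2 and 32.81 to 33.81 CPM in the other sorbitol libraries. The sum of PCDH15 was 194.0 CPM in sorbitol 3 and 189.9 to 190.4 CPM in the others.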

How the results depend on the processing

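No count of deep peaks or genes and no median over deep peaks turned direction under the 24 settings compared. The 2061 higher and 358 lower deep peaks became 1027 and 79 with contig factors, 709 and 231 at a mean of at least 50 counts, and 1267 and 159 at an adjusted p under 0.01. Genes of at least 300 kb gave 3786 and 663, and genes of at least 1 Mb 641 and 87. Lower peaks were 233 with library totals and 131 with gene-end factors. Peaks changed 2-fold (707 higher, 36 lower) were 339 and 101 with a loess offset, 1155 and 15 with gene-end factors, 47 and 4 at a mean of 50 counts, 1344 and 59 from 300 kb, and 207 and 9 from 1 Mb. Lower ones were 23 with totals and 22 at the stricter adjusted p. The median of 0.177 was 0.161 with DESeq2 size factors, 0.259 with totals, 0.109 with loess, 0.351 with gene-end and 0.159 with contig factors, 0.110 at a mean of 50 counts and 0.206 from 1 Mb. The 121 higher and 60 lower sums were 198 and 22 with gene-end factors, 1 and 1 with contig factors, 281 and 119 from 300 kb, and 27 and 12 from 1 Mb, and 38 were lower with totals. The DESeq2 Wald test gave 1664 higher and 286 lower peaks.

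The difference of medians between the innermost and outermost distance bins, 0.037, was 0.064 at a mean of 50 counts and -0.016 from 1 Mb. It was not computed for the limits of 50 kb from the ends and 300 kb of length. Leaving out single libraries gave 1666 to 2019 higher and 268 to 367 lower peaks, 649 to 849 and 34 to 49 changed 2-fold, medians of 0.169 to 0.191, 114 to 126 higher and 51 to 67 lower sums, and distance differences from 0.013 (without sorbitol 2) to 0.058. With the replicate number as a block there were 1902 higher and 312 lower peaks, 2203 of the calls shared with the fit without the block, and 121 higher and 59 lower sums. Of 8 libraries, 1 correlated best with its own number. Without vehicle 4 and sorbitol 4, chosen after the data were seen, there were 1804 higher and 377 lower peaks and 111 higher and 68 lower sums.

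These values changed sign. The ADGRL2 start gave 0.016 with totals, 0.160 with loess and 0.108 with gene-end factors, the AUTS2 sum 0.040 with totals and 0.132 with gene-end factors, and the MDH1 start in WDPCP 0.024 with loess. The LYRM4 start in FARS2 gave 0.084 with loess and 0.065 with gene-end factors, the farthest peak of CNTNAP2 0.028 and the SYN3 sum 0.055 with gene-end factors. The KLF12 start gave -0.0073 (without sorbitol 4) to 0.0816 (without sorbitol 1) when single libraries were left out and -0.0227 without both replicates 4. With contig factors 28 of 30 named genes lost their call with the same direction; the cause was not tested. Of the list medians under alternatives, 50 moved by more than the spread between libraries and 64 did not. Of 20 named peaks, 11 kept their call and direction under every setting. Depth limits single weak peaks, as in the farthest peak of CNTNAP2, which had 10 to 33 counts a library.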
